A study of Mus musculus with 8 samples.

Results

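Iron in a splenic macrophage comes mostly from engulfed red cells. Heme from digested hemoglobin is carried out of the phagosome, heme oxygenase opens the ring and frees the iron, and biliverdin reductases convert the green pigment that is left. The iron is then stored in ferritin, a shell built of light and heavy chains, or sent out of the cell through ferroportin. Ferritin and transferrin receptor messages also carry iron-responsive elements that act on translation and on message stability, so an array that measures RNA sees only part of this control.

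The 10 genes described here encode the ferritin chains (Ftl1, Fth1), heme oxygenase and the biliverdin reductases (Hmox1, Blvra, Blvrb), the heme carriers (Slc48a1, Flvcr1) and the iron carriers and receptor (Slc40a1, Slc11a2, Tfrc). They were chosen by symbol from the platform annotation, 10 of 19938 genes that had a probe set annotated to them alone, and each gene was read from its brightest such probe set, by the mean of the 8 arrays. Of these, 9 had 1 such probe set, and Flvcr1 had a second.

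Both groups were wild-type male C57Bl/6j mice aged 8 weeks, and both were dosed intraperitoneally 4 times on alternate days. The hemophagocyte group (4 arrays, numbered 2, 3, 5 and 6) received 37.5 ug of CpG1826, a synthetic DNA oligonucleotide sensed by Toll-like receptor 9, plus 200 ug of the antibody clone 1B1.3A, which blocks the IL-10 receptor. The resting macrophage group (4 arrays, numbered 3, 4, 5 and 6) received 200 uL of PBS. From touch preparations of the spleen, 20 target cells per mouse were taken by laser capture and pooled, and the labels do not say how many mice stand behind an array. Hemophagocytes, macrophages that hold engulfed blood cells, came only from treated mice and resting macrophages only from PBS mice, so engulfment, CpG1826 and the antibody cannot be told apart. Values are log2 signals, and all changes are hemophagocyte minus resting macrophage.

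The array medians lay between 6.10 and 6.17. Hemophagocytes 3 and 5 stood apart, where 154 and 159 genes exceeded their own 8-array median by over 1 log2 unit, against 7 to 30 genes on the other 6 arrays. Of 13 macrophage markers, Cd68, Lyz2, Csf1r and 7 others lay above an array background measure, the average of odorant and vomeronasal receptor genes, on all 4 resting arrays. Mertk, Vsig4 and Adgre1, the usual surface marker of mouse macrophages, lay above it on 0 of 4. On hemophagocyte arrays, Vsig4 and Adgre1 lay above that measure on 2 of 4 and Lyz2 on 3 of 4. Mertk did so on 0 of 4 and the remaining markers on 4 of 4. Probe sets differ in brightness, so this is a rough guide to what was detected.

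Ftl1 and Fth1 had the 2 largest differences of the 10 genes, 2.54 and 1.71 log2 units higher in hemophagocytes, and the other 8 differed by 0.17 log2 units or less in either direction. No member passed: limma with Benjamini-Hochberg adjustment over 19938 genes called 0 of 10 members higher and 0 of 10 lower, where it called 0.0100% of all genes higher and 0.00% lower. Before adjustment, 2 members had p under 0.05 with higher values and 0 with lower, against 1.53% and 5.05% of all genes. Of the 10 members, 6 lay above 0 and their median change was 0.07, where 36.1% of all genes lay above 0 and the median of all genes was -0.04. That share depended on normalization. It was 45.3% with quantile normalization, 46.2% with median centring and 50.9% with cyclic loess, with 6 members above 0 in each.

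**Figure D1:**
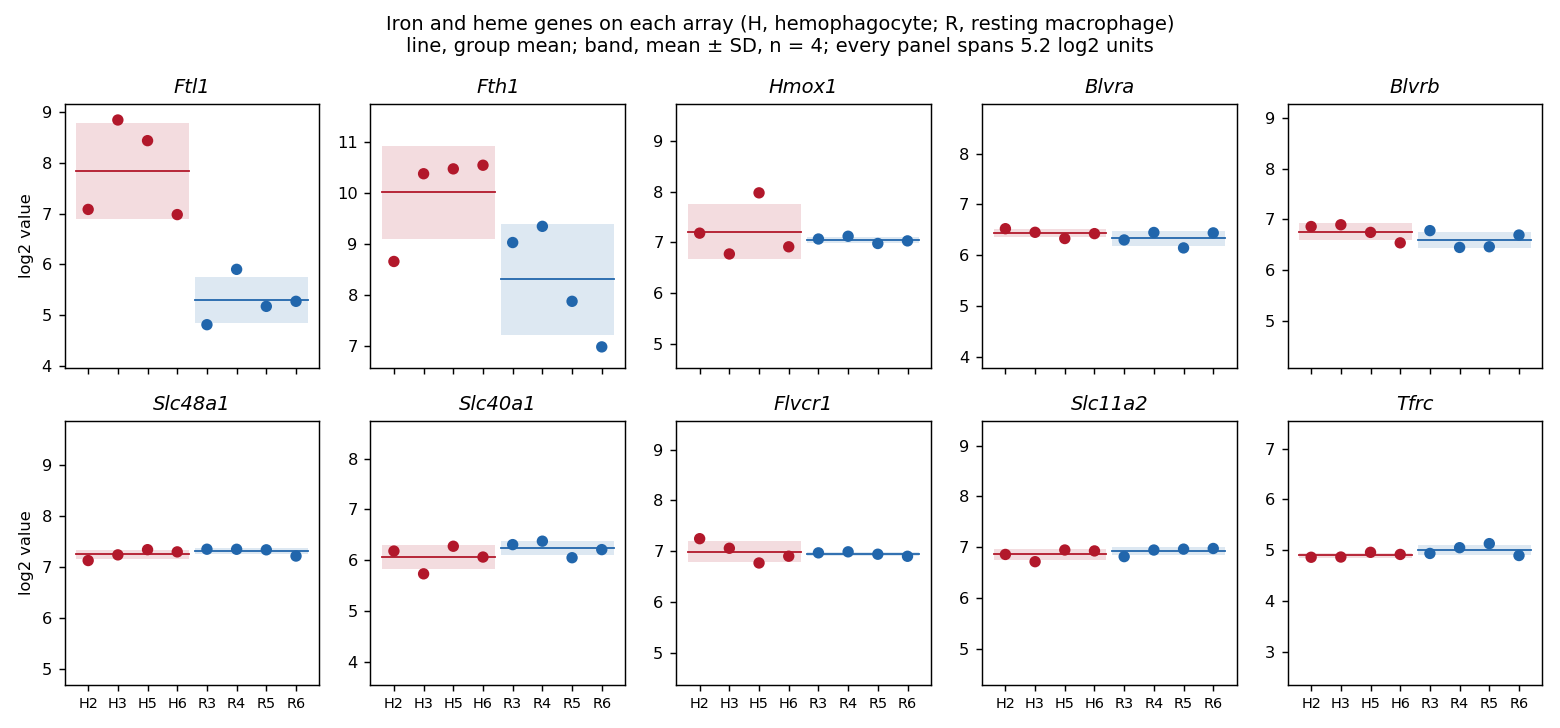
Log2 value of each of the 10 genes on each array, hemophagocytes (H, red) and resting macrophages (R, blue), with the group mean as a line and the mean ± SD as a band (n = 4 each). The Ftl1 points of the groups do not overlap, the Fth1 points overlap through hemophagocyte 2 at 8.66, and so do the points of both groups in each of the other 8 genes.

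The ferritin light chain, Ftl1, favours the deposition of iron in the core of the shell. Its level was 7.08, 8.84, 8.44 and 6.98 on hemophagocytes 2, 3, 5 and 6, and 4.81, 5.90, 5.17 and 5.27 on resting macrophages 3, 4, 5 and 6 (log2, probe set 10447591). Every hemophagocyte array exceeded every resting array, with the higher pair on hemophagocytes 3 and 5. Groups that do not overlap in this direction occurred in 0.802% of all genes. The means were 7.83 ± 0.94 and 5.29 ± 0.45 (SD, n = 4 each), and the difference between these signals did not pass over all genes (log2 change 2.54, SE 0.40, 95% interval 1.67 to 3.42, limma unadjusted p = 5.6e-05, adjusted p = 0.27). The exact two-sided permutation test gave p = 0.0286, the smallest that 4 against 4 arrays allow. On the resting arrays this probe set lay below the array background measure on 4 of 4, so whether it detected Ftl1 there cannot be told, and the difference in signal and its interval are not a measured size of the change in RNA.

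A further 4 probe sets list Ftl1 together with 2 microRNA genes of the Mir692 family, so none of them can be given to 1 gene. They were brighter than the probe set of Ftl1 alone and showed the same separation: on each of the 4, every hemophagocyte array lay above every resting array. Over all 35556 probe sets, 0.976% separated in that direction. Probe set 10563295 stood at 8.95, 9.68, 9.88 and 8.41 on hemophagocytes 2, 3, 5 and 6 and at 6.86, 7.28, 6.45 and 6.75 on resting macrophages 3, 4, 5 and 6. Here the spread within groups was smaller than for the probe set of Ftl1 alone, with means of 9.23 ± 0.68 and 6.84 ± 0.34. The changes of the other 3 were 2.24 (probe set 10406198), 1.37 (10428336) and 2.36 (10508069). RefSeq names 3 ferritin light chain pseudogenes and 2 of the heavy chain. Signal from such near-identical copies was not tested, either on these probe sets or on the probe set of Ftl1 alone.

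Whether Ftl1 passed depended on the probe set. With the mixed probe sets allowed to stand for Ftl1, the brightest of the 5, 10563295, took its place and the change of 2.39 (SE 0.29) passed in limma over the same number of genes at adjusted p = 0.039, as 1 of 3 genes called higher (0.0150%). The adjusted p of this probe set ranged from 0.0060 to 0.72 over 17 further settings and was under 0.05 in 6 of them. Among the settings that ended the call were leaving out resting macrophage 5 (adjusted p = 0.26), resting macrophage 6 (0.21), resting macrophage 3 (0.13), hemophagocyte 3 (0.11), resting macrophage 4 (0.078) and hemophagocyte 5 (0.059), and a fit over all 35556 probe sets also gave no call (adjusted p = 0.38; 0.00281% of probe sets called higher). The mean of the 5 probe sets stood at 8.61 ± 0.66 in hemophagocytes and 6.43 ± 0.34 in resting macrophages, a change of 2.18. Because each of the 5 separated the groups, their mean had to, which fixed its exact two-sided permutation p at 0.0286. That p therefore adds no support.

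**Figure D2:**
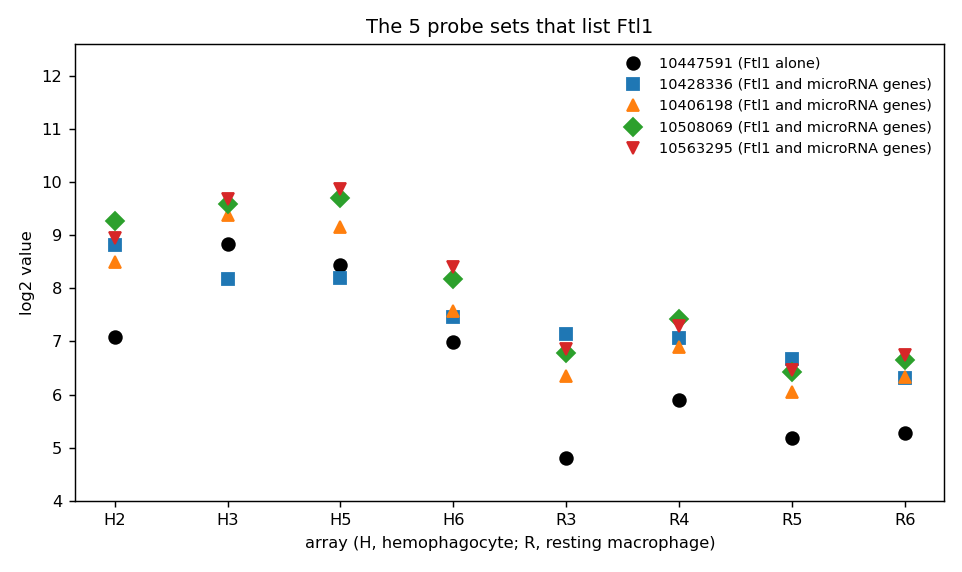
Log2 value of the 5 probe sets that list Ftl1 on each array, hemophagocytes (H) on the left and resting macrophages (R) on the right; black circles are the probe set of Ftl1 alone, the other symbols those that also list microRNA genes. In each of the 5 sets the hemophagocyte points lie above the resting points, with changes from 1.37 to 2.54.

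The ferritin heavy chain, Fth1, holds the ferroxidase site that oxidises iron for storage. Its level was 8.66, 10.38, 10.48 and 10.55 on hemophagocytes 2, 3, 5 and 6, and 9.03, 9.35, 7.87 and 6.98 on resting macrophages 3, 4, 5 and 6 (probe set 10461402). Hemophagocytes 3, 5 and 6 lay above every resting array, and hemophagocyte 2 lay below resting macrophages 3 and 4, so the groups overlapped. The means were 10.02 ± 0.91 and 8.31 ± 1.09, a 3.27-fold difference that did not pass (log2 change 1.71, SE 0.53, 95% interval 0.53 to 2.89, limma unadjusted p = 0.0088, adjusted p = 0.75; exact two-sided permutation p = 0.0857). The spread of Fth1 was wide in both groups, 1.89 log2 units from lowest to highest in hemophagocytes and 2.37 in resting macrophages.

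Some markers of macrophages and platelets were also high on hemophagocytes 3 and 5, and some of neutrophils on hemophagocyte 3. Among 13 macrophage markers, 11 had a change above 0 and 0 passed, and their mean was 7.16 and 7.79 on these arrays, 6.52 and 6.61 on hemophagocytes 2 and 6, and 6.63 to 6.82 on resting arrays. Without Cd68, C1qc and Lyz2, which led that mean, the other 10 averaged 6.48 on hemophagocyte 3 and 7.12 on hemophagocyte 5, against 6.42 to 6.49 on the other 6 arrays. Lyz2 was not higher between the groups, with a change of -0.40. It stood at 9.95 and 9.96 on hemophagocytes 3 and 5 and at 5.86 and 6.55 on hemophagocytes 2 and 6. Resting arrays had Lyz2 at 7.45 to 8.89. The mean of 6 measured platelet markers, 3 of them with a change above 0 and 0 passing, was 7.21 and 7.09 on hemophagocytes 3 and 5 and 6.45 to 6.82 on the other 6 arrays. The platelet chemokine Pf4, at 10.35 and 9.11, alone made this difference: the other 5 averaged 6.58 and 6.68 there, within or below the 6.64 to 6.74 of resting arrays. The mean of 11 neutrophil markers, 5 above 0 and 0 passing, was 6.31 to 6.74 on hemophagocytes and 6.26 to 6.34 on resting arrays. Its peak on hemophagocyte 3 rested on S100a8 (8.02) and S100a9 (9.12), and without these the other 9 averaged 6.34 there, against 6.42 to 6.51 on resting arrays. On hemophagocyte 5, S100a8 stood at 6.41 and S100a9 at 6.01, the lowest S100a9 value of the 8 arrays. Hemophagocyte 6 had S100a8 at 5.12 and S100a9 at 7.33. On resting arrays S100a8 ran from 4.86 to 5.02 and S100a9 from 6.12 to 6.34. The part of these cells in the ferritin difference was not tested, and in pooled captured cells a change in the number of cells of a type cannot be told apart from a change in RNA per cell. Without hemophagocytes 3 and 5 the Ftl1 change was 1.74 (limma adjusted p = 0.13) and the Fth1 change 1.30 (adjusted p = 0.96), against 2.54 and 1.71 with all arrays.

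Markers of red cell precursors were not higher on hemophagocyte arrays as a list. The mean of 11 measured erythroid markers ran from 6.64 to 6.71 in both groups, with 5 of 11 above 0 and 0 passing. The groups did not overlap in 2 of the 11, both with lower values in hemophagocytes, where 2.90% of all genes separated in that direction. These were the red cell membrane skeleton genes Epb42 (log2 change -0.24, limma unadjusted p = 0.0037, adjusted p = 0.75) and Ank1 (-0.12, adjusted p = 0.75). The adult globins share probe sets and were not analysed here. The means of the B cell (6.22 to 6.41 on hemophagocytes, 6.32 to 6.45 on resting arrays), T cell (6.39 to 6.55, 6.49 to 6.58) and stromal and endothelial markers (6.55 to 6.61, 6.58 to 6.65) overlapped between the groups. NK cell markers stood at 5.84 to 6.13 on hemophagocytes and 6.19 to 6.24 on resting arrays, 2 of 9 with a change above 0 and 0 passing.

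The upstream sequences of the ferritin chains are shown because these were the members with the largest differences. They are the 250 bases before the transcription start given by RefSeq on GRCm38.p6; Fth1 has 2 listed starts and the one of higher coordinate is shown. Capitals mark CCAAT boxes, here all read on the opposite strand as ATTGG. The Ftl1 sequence is chr7:45459887-45460136 on the minus strand and the Fth1 sequence chr19:9982396-9982645 on the plus strand.
Ftl1: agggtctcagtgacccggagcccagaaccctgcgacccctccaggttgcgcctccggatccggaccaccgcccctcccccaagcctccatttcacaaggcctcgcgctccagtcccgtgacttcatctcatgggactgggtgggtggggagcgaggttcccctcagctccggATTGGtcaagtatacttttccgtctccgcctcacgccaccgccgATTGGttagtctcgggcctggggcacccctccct
Fth1: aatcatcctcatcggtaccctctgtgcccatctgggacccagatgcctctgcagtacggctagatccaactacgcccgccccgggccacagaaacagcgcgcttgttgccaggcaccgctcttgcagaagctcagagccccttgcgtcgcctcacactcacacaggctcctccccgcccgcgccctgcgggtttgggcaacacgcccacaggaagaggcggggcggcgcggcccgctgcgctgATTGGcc

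Both sequences shown held the CCAAT box, at positions -78 and -34 in Ftl1 and -7 in Fth1, counted back from the start. The window of the other Fth1 start did not hold it. On either strand, CCAAT lay in 33.9% of 32851 upstream windows of this length, so the match is common. RefSeq promoters were listed for 6 of the 10 members, in 9 windows, and 5 of the 9 held it: besides the sequences shown these were Blvra, Flvcr1 and 1 of the 2 windows of Tfrc. The core of the antioxidant response element, searched as TGACNNNGC on both strands, lay in the windows of Blvra and Flvcr1 and in 10.2% of all upstream windows, and those letters were not in the 3 ferritin windows. Past the listed start, TATAA began at position 18 in Ftl1 and 27 in Fth1. On either strand it lay in 24.9% of whole windows of 300 bases. A match of letters is not evidence of binding, and the array does not measure it.

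Heme oxygenase 1, Hmox1, opens the heme ring and releases iron. Its level was 7.18, 6.77, 7.98 and 6.91 on hemophagocytes 2, 3, 5 and 6, and 7.07, 7.12, 6.98 and 7.03 on resting macrophages 3, 4, 5 and 6. Hemophagocyte 5 alone lay well above the rest, hemophagocytes 3 and 6 lay below every resting array, and the groups overlapped. The change was 0.16 (SE 0.21, 95% interval -0.30 to 0.63, limma adjusted p = 0.87), and without hemophagocyte 5 it was -0.09. The resting arrays lay within 0.14 log2 units of each other, whereas hemophagocytes spanned 1.20.

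The biliverdin reductases act on the product of heme oxygenase. Blvra, which makes bilirubin, stood at 6.33 to 6.52 on hemophagocytes and 6.14 to 6.45 on resting arrays, a change of 0.10 (95% interval -0.09 to 0.29, limma adjusted p = 0.80). Blvrb, which also reduces flavins, stood at 6.54 to 6.89 and 6.45 to 6.78, a change of 0.16 (95% interval -0.07 to 0.40, limma adjusted p = 0.76). Both ranges overlapped, and the upper bounds leave room for differences of up to 0.29 and 0.40 log2 units.

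Among the heme carriers, Slc48a1, which moves heme from the phagolysosome to the cytosol, hardly varied. It stood at 7.13, 7.24, 7.34 and 7.30 on hemophagocytes 2, 3, 5 and 6, and at 7.35, 7.35, 7.34 and 7.21 on resting macrophages 3, 4, 5 and 6. Its change was -0.06 (95% interval -0.22 to 0.10, limma adjusted p = 0.86). Flvcr1, described as a heme exporter of the plasma membrane, stood at 6.77 to 7.25 on hemophagocytes and 6.90 to 6.99 on resting arrays, a change of 0.04 (95% interval -0.17 to 0.26, limma adjusted p = 0.93). Its dimmer probe set had a change of -0.12, so the probe sets of Flvcr1 differed in direction.

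Among the iron carriers, Slc40a1 encodes ferroportin, the exporter through which macrophages return iron to the blood. It stood at 6.18, 5.73, 6.28 and 6.06 on hemophagocytes 2, 3, 5 and 6, and at 6.31, 6.38, 6.05 and 6.21 on resting macrophages 3, 4, 5 and 6. Hemophagocyte 3 was the lowest of the 8 arrays, the groups overlapped, and the change of -0.17 did not pass (SE 0.12, 95% interval -0.44 to 0.09, limma adjusted p = 0.77). The level was close to the array background measure, which ran from 5.74 to 6.16, so a low Slc40a1 signal cannot be told from none. Markers of red pulp macrophages, the iron-recycling macrophages of the spleen, averaged 6.39 to 6.53 on hemophagocytes and 6.51 to 6.56 on resting arrays, with 1 of 8 above 0 and 0 passing. Among these, the transcription factor Spic stood at 5.67 ± 0.14 and 5.78 ± 0.09 and the hemoglobin-haptoglobin receptor Cd163 at 5.71 ± 0.23 and 5.84 ± 0.08. Spic and Cd163 lay above the array background measure on 0 of 4 arrays in each group. Their values therefore do not show that either was detected.

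Slc11a2, which moves ferrous iron out of endosomes, stood at 6.72 to 6.95 on hemophagocytes and 6.82 to 6.98 on resting arrays, a change of -0.06 (95% interval -0.23 to 0.11, limma adjusted p = 0.86). Tfrc, the transferrin receptor that brings in iron from plasma, stood at 4.86 to 4.96 and 4.90 to 5.13, a change of -0.10 (95% interval -0.27 to 0.06, limma adjusted p = 0.77). Tfrc lay below the array background measure on 8 of 8 arrays, so its values do not show that it was detected.

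**Figure D3:**
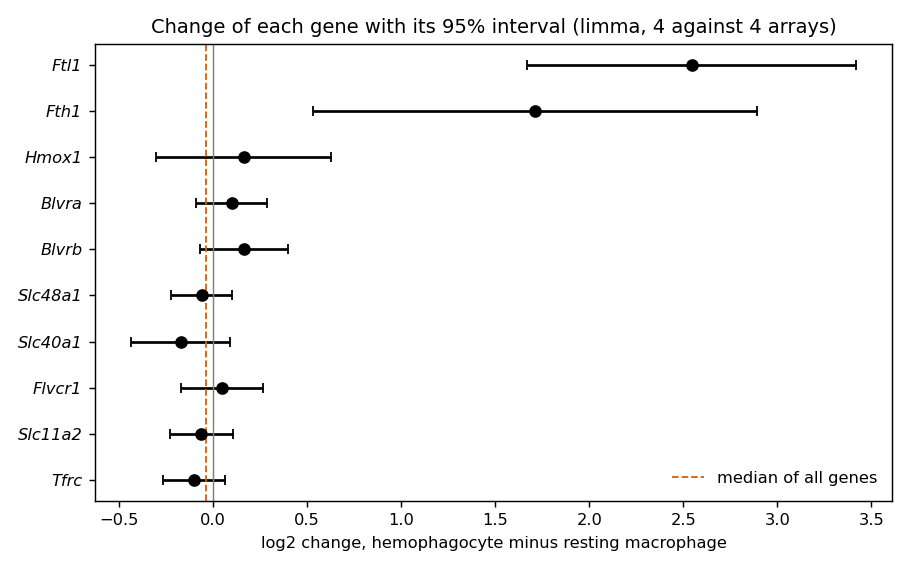
Log2 change of each gene, hemophagocyte minus resting macrophage, with its 95% interval from limma (4 against 4 arrays); the dashed line is the median of all genes, -0.04. The intervals of Ftl1 and Fth1 lie above 0 before adjustment over genes, and those of the other 8 hold 0.

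Other genes of the pathway were grouped in 5 lists, and 0 members of any of them passed in limma in either direction. In hemoglobin and heme uptake, 6 of 11 lay above 0 with a median change of 0.01. Hp, haptoglobin, which binds free hemoglobin, stood at 6.66, 6.52, 6.70 and 6.27 on hemophagocytes 2, 3, 5 and 6, and at 6.12, 6.07, 6.01 and 6.22 on resting macrophages 3, 4, 5 and 6. The Hp groups did not overlap, as in 0.802% of all genes in this direction, though the nearest arrays stood at 6.27 and 6.22. The Hp change was 0.43 (SE 0.10, limma adjusted p = 0.75). Pgrmc1, a heme-binding membrane protein, had a change of 0.19, Lrp1, the receptor for heme bound to hemopexin, -0.10, and the folate and heme carrier Slc46a1 0.10. Pgrmc1 lay above the array background measure on 0 of 4 arrays in each group, so its detection is not shown.

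In other iron transport and binding, 6 of 15 measured genes lay above 0, with a median of -0.04. Lcn2, lipocalin 2, which binds iron-carrying siderophores, stood at 6.48, 8.70, 7.67 and 6.70 on hemophagocytes 2, 3, 5 and 6, and at 6.29, 6.35, 6.34 and 5.79 on resting macrophages 3, 4, 5 and 6. The groups did not overlap, the higher pair was again hemophagocytes 3 and 5, and the change of 1.20 did not pass (SE 0.40, limma adjusted p = 0.75). Lower values that did not pass were those of the metalloreductase Steap4 (-0.23), the metal carrier Slc39a14 (-0.15) and ceruloplasmin, Cp (-0.13). Cp lay above the array background measure on 0 of 4 arrays in each group, so its detection is not shown. Groups that do not overlap occurred in 0.802% of all genes with higher values, as in Lcn2, and in 2.90% with lower values, as in Steap4.

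In iron regulation, 4 of 13 measured genes lay above 0 and the median was -0.06. The values of smallest p were those of the hormone hepcidin, Hamp (-0.29), which closes ferroportin, the iron chaperones Pcbp1 (-0.15) and Pcbp2 (0.12), and Ncoa4 (-0.13), which delivers ferritin for breakdown. In heme synthesis, 3 of 9 measured genes lay above 0 and the median was -0.01. There Uros stood at -0.18, Alas1 at -0.10, Alad at -0.05 and Urod at 0.03.

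In the heme and oxidant response, which holds the regulators Nfe2l2 and Bach1 and enzymes they control, 6 of 16 measured genes lay above 0 and the median was -0.03. The small Maf protein Mafk stood at -0.17, thioredoxin reductase Txnrd1 at 0.15, glutathione reductase Gsr at -0.14 and Spic at -0.10. Prdx1, a peroxiredoxin named here after its values were seen, reached 7.75 on hemophagocyte 5, the other 7 arrays lying between 4.51 and 4.81, a change of 0.67 (limma adjusted p = 0.81). The median change of each of the 5 lists lay within 0.05 log2 units of that of all genes.

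**Figure D4:**
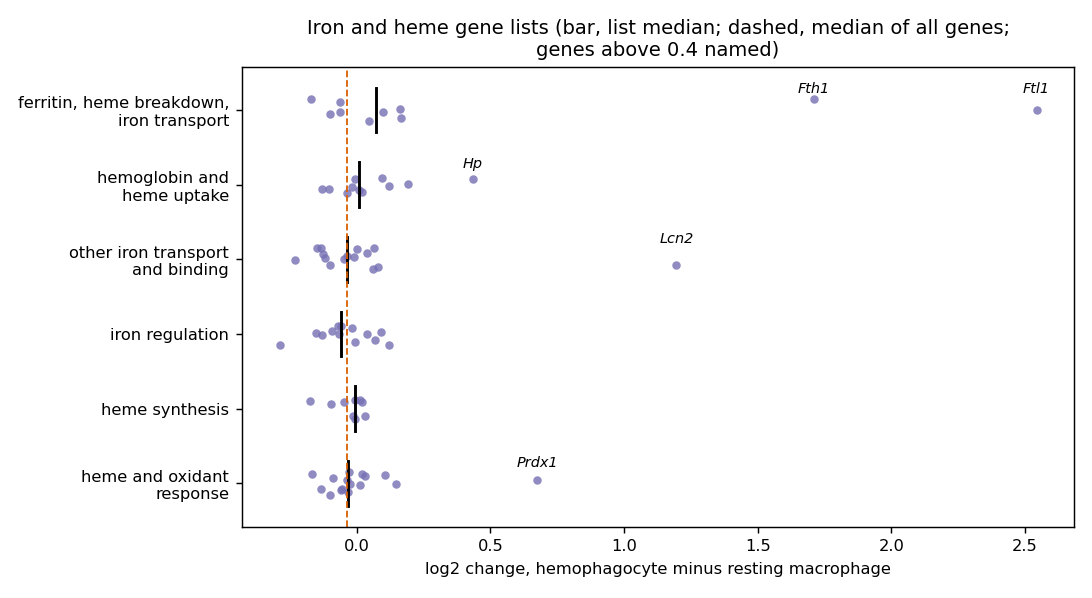
Log2 change of each measured gene in the 6 iron and heme lists, with the list median as a bar and the median of all genes (-0.04) dashed; height within a row is only spread for legibility. The points above 0.4 are Ftl1 and Fth1 in the top row, Hp, Lcn2 and Prdx1, and none of these 5 passed.

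For the ferritin chains, the genes of most similar profile were found by Pearson's r over the 8 arrays. Predicted genes, pseudogenes, microRNAs, odorant and vomeronasal receptors and genes with only a clone or numbered name were passed over. For Ftl1 these were Tnnc2 (0.97), Rnu5g (0.97), Psenen (0.95), Btg1 (0.95) and Psmd4 (0.95), with changes of 0.16 to 0.47. For Fth1 they were Atg16l2 (0.97), Nfkbia (0.94), Ctsl (0.94), Ggh (0.93) and Adamtsl5 (0.91), with changes of 0.07 to 0.40. They were picked as the highest among the rest of the 19938 genes, and the arrays share the difference between the groups. These values therefore carry no test.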

How the data were processed

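The values deposited by the authors are on the log2 scale, as judged from their range, with 1 value per probe set and array on Affymetrix mouse Gene ST 1.0 arrays. The submitters' processing notes name Affymetrix Expression Console 1.1. Background correction, probe summary and normalization (not given in the sources used here) could change the values. Amplification used the WT-Ovation One-Direct kit, per the labels' protocols. Starting from few cells, it can leave out or overstate single transcripts. Arrays have no read depth, and 4 per group limit the precision.

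Of 35556 probe sets, 21789 had 1 gene symbol, 1621 several and 12146 none; those with 1 were used and gave 19938 genes (999 had several probe sets). Entrez identifiers of 21698 matched RefSeq (GRCm38.p6), which altered 0 symbols. No 2 arrays held identical values. The test was limma (version 3.58.1, R 4.3.3; lmFit, then eBayes, two-sided, no block), with p-values adjusted by Benjamini-Hochberg over all genes and a threshold of 0.05. Replicate numbers come from the sample titles; no label ties arrays to separate mice, so p-values reflect only the spread among these arrays, which may be technical. The members and lists were chosen with earlier results of these data known. Named genes are the 10 members, up to 4 members of smallest p per other list, and the 5 genes most like Ftl1 and Fth1; cell type markers were named outside this rule, after their values were seen. Alternatives covered normalization, a filter on dim genes, variance prior, array weights, probe sets, array background (mean of 1196 receptor genes), a replicate block and arrays left out; the mixed Ftl1 probe sets and the fit over all probe sets were added after seeing the data. On simulated data with 19938 genes, a shift of 1 log2 unit was recovered in 95.2% of shifted genes and one of 2 in 99.8% for this comparison, with 8.0 false calls per draw. The shifted genes were drawn at random from all genes. More genes were shifted per draw than were called in the data, which makes the adjusted threshold easier to pass. The simulated noise was independent between genes. The SD of Ftl1 and Fth1 over the 8 arrays, group difference included, lay at percentiles 99.9 and 99.8 of all genes. The recovery rates therefore do not apply to these 2 genes, and they are not read as power for the other members.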

Additional observations from a re-analysis of the deposited data

Results flagged for a closer look

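Fth1 on hemophagocyte 2 stood at 8.66, far below the other hemophagocytes at 10.38 to 10.55. Slc48a1 on resting macrophage 6 stood at 7.21, below the other resting arrays at 7.34 to 7.35. Each was set apart by a gap of 91% of its group's range. With 20 sets of 4 arrays examined (10 genes in each of 2 groups), some gaps can be marked by chance alone.

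The 4 probe sets that list Ftl1 with microRNA genes, which the comparison of genes leaves out, had higher values on every hemophagocyte array than on any resting array. Of all probe sets, 0.976% separated in that direction. Their changes were 2.24 (10406198), 1.37 (10428336), 2.36 (10508069) and 2.39 (10563295).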

How the results depend on the processing

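Over the alternatives run for each member (19 or 20 each), Ftl1 changed by 1.74 to 2.998 and Fth1 by 1.27 to 2.51 in the same direction, and Blvra, Blvrb, Slc48a1, Slc40a1 and Tfrc kept their direction. Hmox1 turned to -0.093 without hemophagocyte 5 (range -0.093 to 0.31 over single arrays left out) and to -0.0014 without hemophagocytes 3 and 5. Its highest change was 0.43, with array background as a covariate (limma adjusted p = 0.97). Flvcr1 turned to -0.036 as the mean of its probe sets, -0.050 with array background as a covariate and -0.027 with the replicate block (-0.040 to 0.12 over single arrays left out), and Slc11a2 to 0.051 with array background. The number of members called higher was 1 with the mixed Ftl1 probe sets and 0 otherwise. Over all genes, calls higher numbered 1 with median centring, cyclic loess, the intensity trend with robust prior, or array background, 7 with the replicate block, and 1 to 11 over single arrays left out, against 2. The replicate block called no member or other iron gene, with limma adjusted p = 0.16 for Ftl1 and 0.22 for Fth1. The deviations of same-numbered arrays from their group means had r of 0.17, 0.07 and 0.12 for numbers 3, 5 and 6. The resting array most like hemophagocytes 3, 5 and 6 in this was number 3, 6 and 6. These values cannot settle whether the numbers mark pairs. No label says that they do, so the main fit has no block. The filter on dim genes left out Slc40a1 and Tfrc, which therefore have no value there.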
